A study of Mus musculus with 6 samples.

Results

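The 9 genes Fkbp5, Tsc22d3, Sgk1, Zbtb16, Klf9, Errfi1, Ddit4, Cdkn1a and Nfkbia are widely used markers of glucocorticoid receptor activity, and were followed across the cell types of the hypothalamic-pituitary-adrenal axis of stressed and unstressed mice. They were taken by symbol from the gene tables of the deposited libraries, where each symbol named 1 row, and make up 9 of 27998 genes. The libraries were droplet single-cell RNA sequencing (10x Genomics, v2 chemistry) of 3 tissues: the adrenal gland, the pituitary, and a hypothalamic piece labelled as the extended paraventricular nucleus (PVN). The stressed mice underwent chronic social defeat for 21 days, in which a mouse meets an aggressor again and again, and the controls were unstressed; all were C57BL/6 and labelled as 10 weeks old, with no allele or drug named. Each tissue gave 1 stress library and 1 control library, each from tissue pooled from 5 mice, and both suspensions of a tissue ran on the same chip. The sources used here do not give sex, the hour of killing or the time since the last defeat.

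Glucocorticoids, corticosterone in the mouse, enter cells and bind the glucocorticoid receptor (Nr3c1), which moves to the nucleus and binds response elements, inverted repeats of a hexamer, near the genes it induces. In the PVN and in corticotropes, the pituitary cells that make adrenocorticotropic hormone, this closes the negative feedback loop of the stress axis, while the adrenal cortex is where the hormone is made. The genes have other inputs as well: Cdkn1a is a p53 target, Nfkbia a target of NF-kB, Errfi1 of growth factor signalling, and Ddit4 of hypoxia and the integrated stress response.

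Promoters are shown because a receptor element close to a start site is one feature by which the genes can be told apart. RefSeq (GRCm38.p6) windows of 250 bases before to 50 bases after each start site were found for 8 of the 9 genes, 17 windows in all, with none for Zbtb16. They were searched on both strands for the half-site AGAACA (reverse TGTTCT) and for the full element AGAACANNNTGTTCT, which contains both half-sites. The Sgk1 window at chr10:21993640-21993939 (plus strand, start site 21993890) held a full element without mismatch, 189 bases before the start site, which 3 of 32851 promoter windows (0.00913%) did. It is followed here by a Tsc22d3 window at chrX:140600473-140600772 (minus strand), with 1 half-site, and by the Nfkbia window at chr12:55492598-55492897 (minus strand), the gene that differed most in adrenal cortex-like cells, with none. Capitals mark the full element in Sgk1 and the half-site in Tsc22d3.
Sgk1: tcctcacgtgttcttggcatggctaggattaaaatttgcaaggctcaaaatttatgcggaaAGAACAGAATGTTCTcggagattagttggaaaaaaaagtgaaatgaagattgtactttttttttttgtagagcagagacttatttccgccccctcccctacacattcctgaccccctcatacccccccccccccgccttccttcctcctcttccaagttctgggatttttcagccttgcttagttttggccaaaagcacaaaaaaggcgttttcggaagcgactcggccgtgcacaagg
Tsc22d3: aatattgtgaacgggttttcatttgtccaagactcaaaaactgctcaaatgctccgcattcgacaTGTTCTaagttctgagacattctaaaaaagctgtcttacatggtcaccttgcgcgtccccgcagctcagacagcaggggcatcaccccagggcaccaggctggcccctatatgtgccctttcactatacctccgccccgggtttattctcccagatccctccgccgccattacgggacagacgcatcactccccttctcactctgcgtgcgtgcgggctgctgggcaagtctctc
Nfkbia: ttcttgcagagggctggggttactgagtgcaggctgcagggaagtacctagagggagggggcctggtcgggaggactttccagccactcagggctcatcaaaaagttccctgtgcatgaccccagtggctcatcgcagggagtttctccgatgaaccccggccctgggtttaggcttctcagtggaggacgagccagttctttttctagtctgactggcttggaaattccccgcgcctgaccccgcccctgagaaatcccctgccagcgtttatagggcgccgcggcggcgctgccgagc

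Across the 17 windows of the 8 genes, 4 (23.5%) held a half-site, against 19.0% of all promoter windows. A full element with at most 2 mismatches was in 2 (11.8%), both of Sgk1, against 1.84% of all, and with at most 3 mismatches in 4 (23.5%), against 14.5%. The 4 were 3 windows of Sgk1 and 1 of Errfi1, and the single windows of Fkbp5, Klf9, Ddit4 and Nfkbia held none of these. Windows of 1 gene are not independent, and these letters say nothing about elements elsewhere: those of Fkbp5 known from other work lie in its introns.

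Cells were clustered jointly within each tissue without the 9 genes and named from marker genes, so that the names are of the form neuron-like. Libraries held 3612 and 3653 PVN barcodes (stress and control), 5103 and 5202 pituitary barcodes, and 3183 and 2330 adrenal barcodes. Total UMIs, the unique molecular identifiers that count RNA molecules, ran from 29059956 to 53244403 a library. More adrenal barcodes exceeded the limit of 25% mitochondrial UMIs under stress (378) than in controls (130). Libraries of the same tissue shared 16 (PVN), 39 (pituitary) and 10 (adrenal) barcode sequences, between 0.429% and 0.764% of the smaller library. The median log2 ratio of stress over control of the heat-shock list was above 0 in all 18 cell classes compared. It was lowest in adrenal cortex-like cells, at 0.06 beside 0.01 over all genes with at least 50 UMIs there. It was highest in corticotrope-like cells, at 1.15 beside -0.04 over all such genes. Immediate-early genes had a median ratio above 0 in each of the 8 pituitary classes (0.20 to 1.40) and below 0 in each of the 3 adrenal classes (-0.59 to -0.13).

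Classes with at least 100 cells in both libraries were compared, 8 of them pituitary, 7 from the PVN and 3 adrenal. A level is a gene's UMIs summed over the cells of a class, as counts per 1e6 UMIs of that class (CPM), with an exact Poisson 95% interval. Differences are given as log2 ratios, stress over control, with an exact 95% interval in parentheses. These intervals cover counting error only. With 1 library a group there is no replicate and no test, so that no difference below can be set against variation between pools of mice. A gene was assessed in a class where both libraries together gave at least 50 UMIs, and a ratio of at least 1.5-fold (0.585 on the log2 scale) in either direction is called past the fold. The same rule was applied to every gene of the class, and the share of all assessed genes past the fold is the background.

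Of 162 pairs of a gene and a class, 134 were assessed, and 19 were past the fold, 5 higher and 14 lower under stress. By tissue this was 1 higher and 0 lower of 52 PVN pairs, 3 higher and 8 lower of 56 pituitary pairs, and 1 higher and 6 lower of 26 adrenal pairs. The intervals lay on 1 side of 0 for 0 of the 1, 9 of the 11 and 7 of the 7 of these. Of all assessed genes, between 2.74% (neuron-like cells) and 8.89% (microglia-like cells) of a PVN class were past the fold. In pituitary classes the share ran from 5.8% (stem or folliculostellate-like cells) to 16.4% (melanotrope-like cells). In adrenal classes it ran from 6.51% (cortex-like cells) to 12.1% (macrophage-like cells). No share was computed over the same mix of classes, so the pair counts of a tissue have no single background. All genes leaned lower in some classes, such as lactotrope-like cells (4.67% lower and 1.85% higher). They leaned higher in others, such as adrenal cortex-like cells (2.98% lower and 3.53% higher). Over all 134 pairs, 52 ratios were above 0 and 82 below, with a median of -0.08 and tissue medians of -0.01, -0.16 and -0.28. For 78 pairs the interval held 0. Against the distribution of all assessed genes in the same class, 18 of the 134 pairs lay below the 5th percentile and 8 above the 95th, and 5 of the 18 were in adrenal cortex-like cells.

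**Figure D1:**
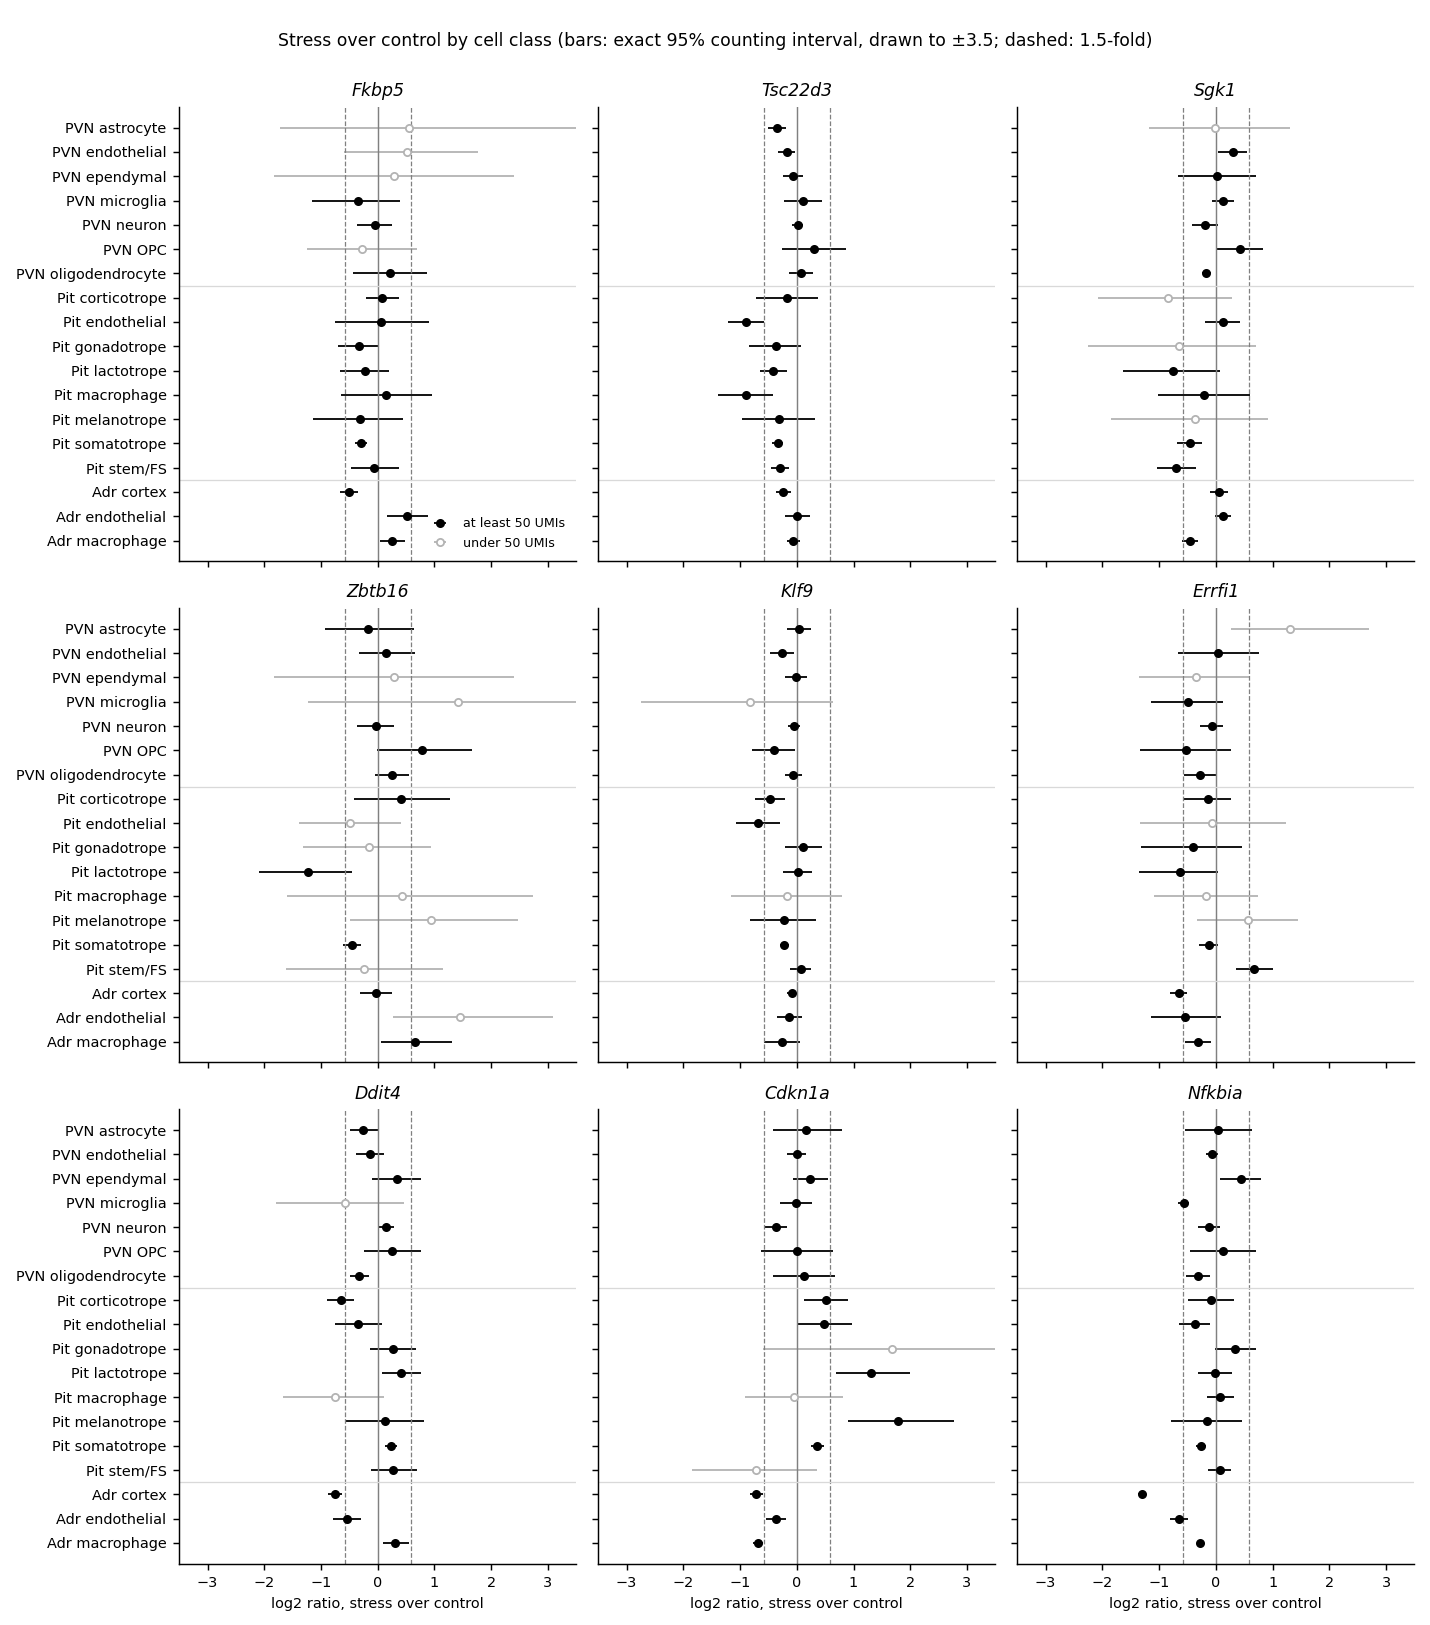
Log2 ratio of stress over control (x axis) of each of the 9 genes (panels) in the 18 cell classes (rows; Pit is pituitary, Adr adrenal, OPC oligodendrocyte precursor-like, FS folliculostellate), with exact 95% counting intervals drawn as far as 3.5 on either side; open points have under 50 UMIs and dashed lines mark 1.5-fold. Nfkbia in adrenal cortex-like cells lies at -1.30 and Cdkn1a in melanotrope-like cells at 1.78, while 1 of the 52 assessed PVN points lies outside the dashed lines.

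The levels of the 9 genes followed cell type far more than condition. Fkbp5, a co-chaperone of Hsp90 that lowers the receptor's affinity for hormone, was highest in adrenal endothelial-like cells, at 181 CPM under stress and 127 CPM in controls, ahead of adrenal macrophage-like cells (143 CPM under stress and 119.7 CPM in controls) and corticotrope-like cells (119.9 CPM under stress and 113 CPM in controls). In controls the intervals of these neighbours overlapped; under stress those of adrenal endothelial-like and macrophage-like cells did not. It was lowest in ependymal-like cells, at 3.25 CPM under stress and 2.67 CPM in controls from 5 UMIs in each library, and astrocyte-like cells, at 4.53 CPM under stress and 2.68 CPM in controls from 6 and 2 UMIs, did not differ from them beyond counting error.

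Tsc22d3, which encodes the glucocorticoid-induced leucine zipper, an anti-inflammatory effector, was highest in PVN astrocyte-like cells, at 610.2 CPM under stress and 779 CPM in controls. PVN endothelial-like cells came next, at 549.8 CPM under stress and 622 CPM in controls, with intervals that overlapped those of astrocyte-like cells under stress and not in controls. Corticotrope-like and gonadotrope-like cells were the lowest, at 31.5 CPM under stress and 35.5 CPM in controls and at 31.5 CPM under stress and 40.9 CPM in controls. Corticotrope-like cells were thus among the highest for Fkbp5 and among the lowest for Tsc22d3.

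Sgk1, a kinase that regulates ion channels and transporters, was highest in adrenal endothelial-like cells (913 CPM under stress and 834 CPM in controls) and oligodendrocyte-like cells (782 CPM under stress and 877 CPM in controls). In controls oligodendrocyte-like cells were the higher of the pair, with overlapping intervals. Microglia-like cells came next, at 569 CPM under stress and 521 CPM in controls. The pituitary hormone cells were low, with gonadotrope-like cells at 3.19 CPM under stress and 5.20 CPM in controls. Zbtb16, a zinc finger repressor, was highest in the PVN, with 65.4 CPM under stress and 58.7 CPM in controls in PVN endothelial-like cells and 60.4 CPM under stress and 50.8 CPM in controls in oligodendrocyte-like cells, whose intervals overlapped.

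Klf9, a Krüppel-like transcription factor, was highest in astrocyte-like cells, at 384 CPM under stress and 375 CPM in controls. The intervals overlapped those of adrenal endothelial-like cells (324 CPM under stress and 355 CPM in controls), which is not a test of a difference. Microglia-like cells were the lowest, at 7.47 CPM under stress and 14.1 CPM in controls, and pituitary macrophage-like cells the next lowest. Ddit4, an inhibitor of the growth kinase complex mTORC1, had the same leading classes, with 259.8 CPM under stress and 309 CPM in controls in astrocyte-like cells and 231 CPM under stress and 337 CPM in controls in adrenal endothelial-like cells, whose intervals overlapped, and was also lowest in microglia-like cells, at 16.4 CPM under stress and 25.2 CPM in controls. Errfi1, a feedback inhibitor of the EGF receptor, was highest in stem or folliculostellate-like cells of the pituitary (129 CPM under stress and 80.3 CPM in controls) and adrenal macrophage-like cells (112 CPM under stress and 139 CPM in controls), with intervals that overlapped under stress and not in controls.

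Cdkn1a, the cell cycle inhibitor p21, had the widest range in controls. Adrenal macrophage-like cells held 666 CPM under stress and 1069.8 CPM in controls, and adrenal endothelial-like cells 466 CPM under stress and 600 CPM in controls. PVN endothelial-like cells held 517 CPM under stress and 517 CPM in controls. Gonadotrope-like cells held 2.74 CPM under stress and 0.743 CPM in controls, from 6 and 2 UMIs. Nfkbia, the inhibitor that holds NF-kB in the cytoplasm, was highest in adrenal macrophage-like cells, at 3379 CPM under stress and 4125 CPM in controls, and in microglia-like cells, at 2099 CPM under stress and 3109 CPM in controls. PVN endothelial-like cells followed, at 1336 CPM under stress and 1404 CPM in controls, and no neighbours among these leading classes overlapped in their intervals. Pituitary macrophage-like cells were far lower, at 507 CPM under stress and 480.1 CPM in controls. Neuron-like cells were the lowest, at 23.6 CPM under stress and 25.6 CPM in controls.

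**Figure D2:**
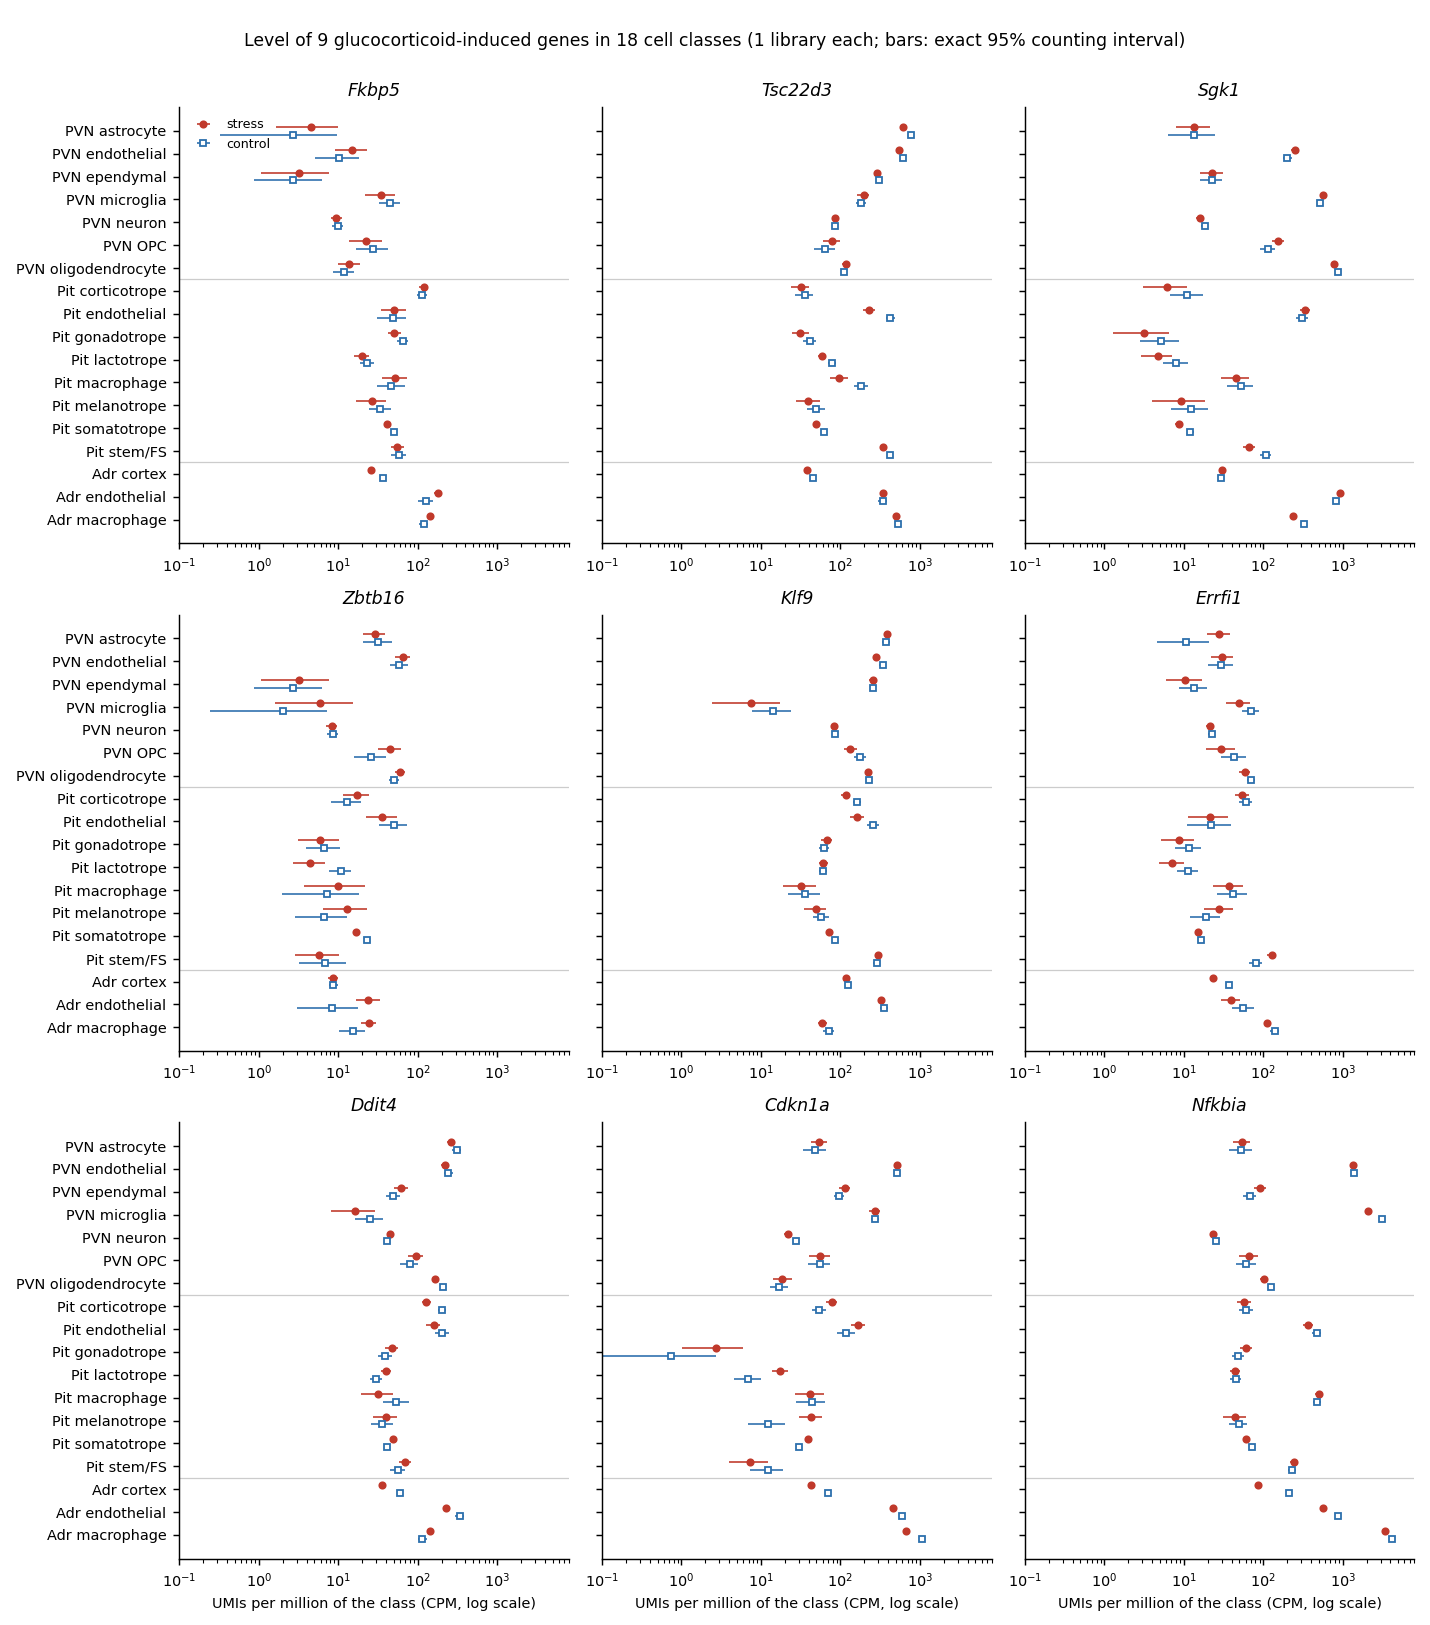
Level of each of the 9 genes (panels) in the 18 cell classes (rows), in CPM on a log axis, with the stress library as filled circles, the control library as open squares and exact Poisson 95% intervals as lines. Both libraries of a class mostly lie close together beside the distance between classes; Nfkbia is at 3379 CPM in adrenal macrophage-like cells and at 23.6 CPM in neuron-like cells under stress.

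The 9 genes did not share 1 profile. Over the 36 values of log2(CPM + 1) of a gene (18 classes in 2 libraries), Pearson's r between members ran from -0.27 for Fkbp5 with Klf9 to 0.76 for Klf9 with Ddit4. Cdkn1a and Nfkbia were at 0.74, and Sgk1 and Nfkbia also at 0.74. Among 12519 genes, those most like Nfkbia were Slfn2 (r = 0.94), Baz1a (0.93) and Mcl1 (0.93). Tsc22d3 was most like Lfng (0.89), Ggta1 (0.86) and Clic4 (0.85), and Sgk1 most like Dnm2 (0.88), Litaf (0.87) and Arhgdia (0.87). For Klf9 the leading genes were Arpin (0.86), Cnn3 (0.83) and Sap30l (0.82), for Ddit4 Plekhg1 (0.84), Ppp2r5a (0.78) and Klf9 (0.76), and for Cdkn1a Acvrl1 (0.80), Icam1 (0.80) and B930036N10Rik (0.79). Fkbp5 was most like E230001N04Rik (0.79), Rps18 (0.79) and Eef2 (0.76), Errfi1 most like Pepd (0.74), H3f3b (0.71) and Neat1 (0.71), and Zbtb16 most like Fmnl2 (0.72), Ddit4 (0.70) and Ppp1r16b (0.68). The 36 values share libraries, depth and cell classes within a tissue, so these are descriptions of likeness over these classes and carry no p-value.

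UMIs of the receptor gene were counted in every compared class. Nr3c1 ran from 10.5 to 202 CPM over the classes and libraries, with a median of 83.6 CPM, and was assessed in all 18. Its low values, such as 12.99 CPM under stress and 10.5 CPM in controls in lactotrope-like cells, were not separated from RNA of other cells: somatotrope markers summed to 55077 CPM under stress and 51928 CPM in controls in that class. The Nr3c1 ratio was past the fold in 1 class, melanotrope-like cells, at -0.69 (25.6 CPM under stress and 41.9 CPM in controls), from 22 and 51 UMIs, with an interval of -1.503 to 0.04 that held 0. Hsd11b2, the enzyme that inactivates corticosterone, reached at most 2.02 CPM, and Nr3c2, the mineralocorticoid receptor, at most 22.7 CPM. Hsd11b1, which regenerates active hormone, had a median of 1.46 CPM over the classes and a highest value of 626 CPM.

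In the adrenal cortex-like cells, the steroid-producing cells and the largest adrenal class (1776 cells under stress and 1577 in controls), 8 of the 9 genes were lower under stress and 4 were past the fold, where 6.51% of all assessed genes were. The median ratio of the 9 was -0.51, against 0.01 over all 11649 genes assessed there. Nfkbia differed most, with 86.1 CPM (2013 UMIs) under stress and 212 CPM (4824 UMIs) in controls, a ratio of -1.30 (-1.37 to -1.22). Ddit4 had 35.2 CPM (823 UMIs) under stress and 59.4 CPM (1353 UMIs) in controls, a ratio of -0.75 (-0.88 to -0.63). Cdkn1a had 42.8 CPM (1000 UMIs) under stress and 70.2 CPM (1599 UMIs) in controls, a ratio of -0.71 (-0.83 to -0.60). Levels of Nfkbia, Ddit4 and Cdkn1a under stress were 0.406, 0.593 and 0.609 times those in controls.

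Errfi1 was the fourth gene past the fold, with 23.5 CPM (549 UMIs) under stress and 37.1 CPM (844 UMIs) in controls, a ratio of -0.66 (-0.82 to -0.50). With the ratio of the other adrenal cells subtracted, Cdkn1a (-0.30) and Errfi1 (-0.55) were within the fold, and with clusters weighted equally Errfi1 was at -0.32. Fkbp5, at 26.1 CPM under stress and 37.1 CPM in controls, and Tsc22d3, at 38.5 CPM under stress and 45.5 CPM in controls, had ratios of -0.51 (-0.66 to -0.36) and -0.24 (-0.37 to -0.11), within the fold and with intervals below 0. Klf9 was at -0.09, Zbtb16 at -0.03 and Sgk1, the only one above 0, at 0.06 (-0.10 to 0.21).

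The cortex-like class was made of several clusters, whose sizes differed between libraries, so the genes were also compared within the 8 clusters with at least 50 cells in each. The clusters come from the same pair of libraries and are not replicates. The share of all genes past the fold was not counted within clusters, so the cluster counts below have no background. Nfkbia was past the fold and lower in all 7 clusters where it was assessed, with ratios from -1.58 to -0.96. Fkbp5 was below 0 in 8 of 8, from -1.49 to -0.08, and Tsc22d3 in 7 of 7. Ddit4 and Cdkn1a were each below 0 in 6 of 7 clusters, past the fold in 4 and 3. Errfi1 was below 0 in 6 of 7 and past the fold in 2, from -0.90 to 0.04. In cluster 9, led by Eno3 and Gulo, Nfkbia stood at 72.6 CPM under stress and 216 CPM in controls. Cluster 5, led by Gem and Gadd45g, held 219 cells under stress and 358 in controls; there Nfkbia stood at 111 CPM under stress and 283 CPM in controls and Ddit4 at 74.3 CPM under stress and 76.9 CPM in controls. Fkbp5 differed most in cluster 13, led by the transporter gene Abcb1b, with 35.0 CPM under stress and 99.4 CPM in controls from 83 cells under stress and 57 in controls. Cells of this cluster had a median of 17.2% mitochondrial UMIs, against 5.37% to 8.38% in the other 7. Cells within a mitochondrial limit of 10% were clustered afresh. There a cluster led by Aldh1a1 and Abcb1b held 5 cells under stress and 20 in controls. Another, led by Srd5a2 and with Abcb1b among its leading genes, held 31 cells under stress and 159 in controls. Sgk1 was below 0 in 2 of 7 clusters, from -0.30 to 0.43.

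**Figure D3:**
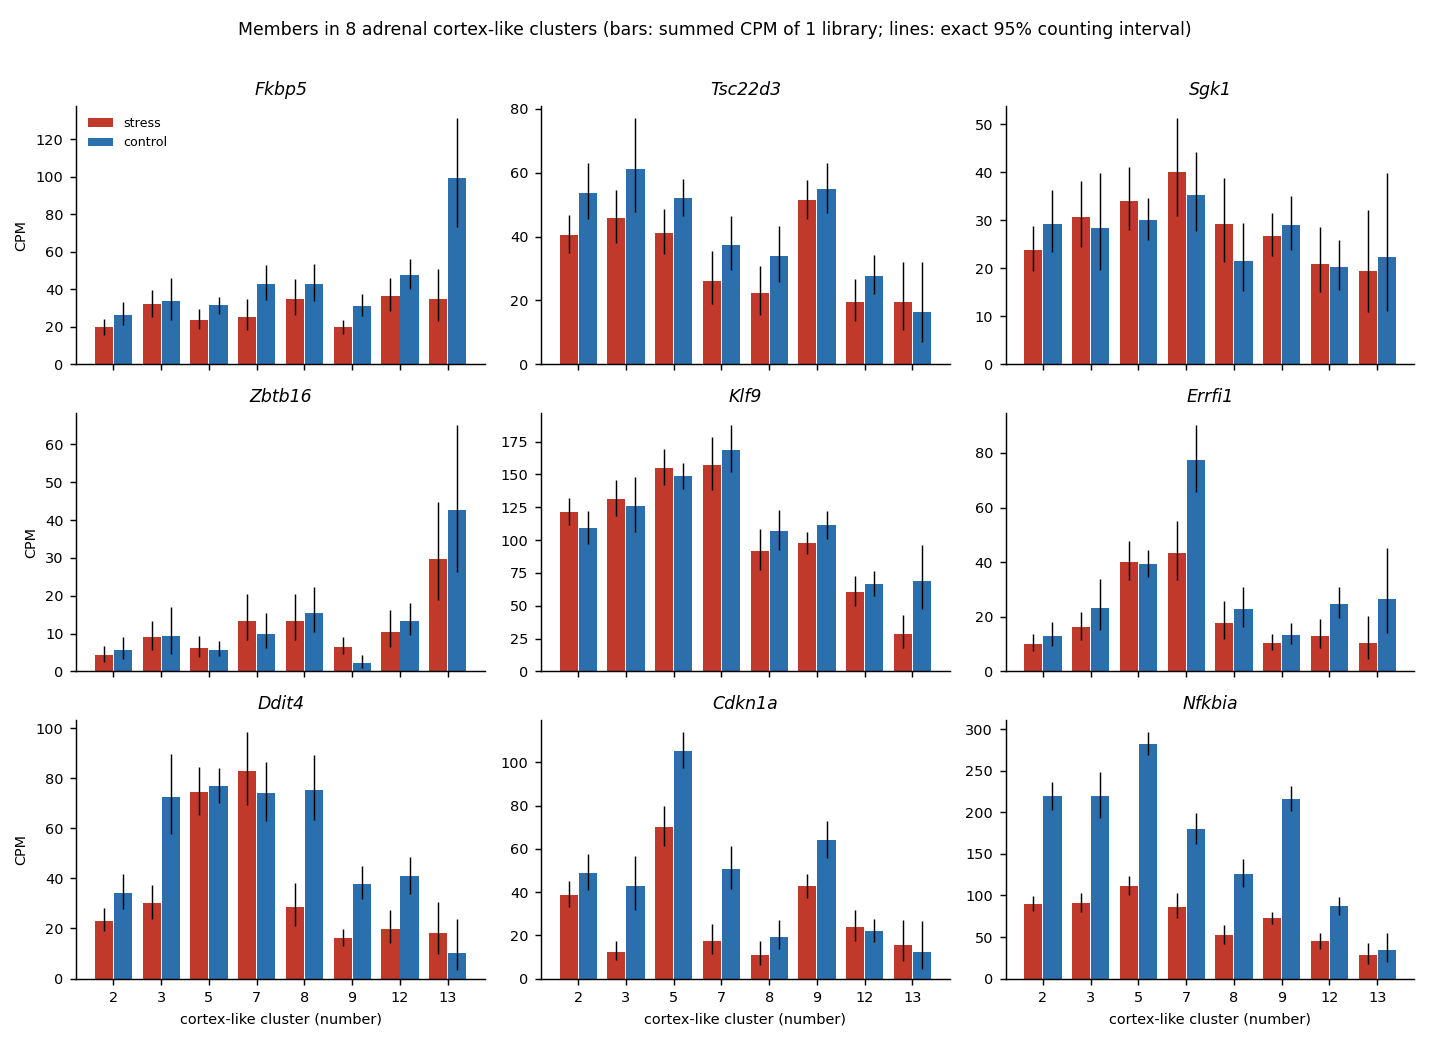
Level of each of the 9 genes (panels) in CPM in the 8 adrenal cortex-like clusters with at least 50 cells in each library, as bars from 0 for the stress library (left, red) and the control library (right, blue) with exact 95% counting intervals as lines. Nfkbia bars are lower under stress in all 7 clusters where it had at least 50 UMIs (cluster 13 had fewer), by log2 ratios of -1.58 to -0.96.

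Several other gene lists also had median ratios below 0 in cortex-like cells, where 2.98% of all genes were past the fold and lower and 3.53% past it and higher. Of 19 other glucocorticoid-responsive genes, 14 were assessed, 7 were past the fold and lower and 1, Angptl4 (0.67), past it and higher, with a median of -0.59; Mt2, a metallothionein, was the lowest at -1.33. Immediate-early genes, which respond rapidly to many stimuli, had a median of -0.59, with 6 of 12 past the fold and lower, among them Nr4a1 at -1.49. Of 10 NF-kB targets, 9 were assessed and 2 were past the fold and lower, the lowest being Icam1 at -1.33, with a median of -0.19. Of 7 p53 targets 1 was past the fold and lower, with a median of -0.06, and the 7 genes of ERK feedback had a median of -0.55 with 2 lower. The summed level of 6 macrophage markers in cortex-like cells was 208 CPM under stress and 108 CPM in controls, and of 6 endothelial markers 37.8 and 23.0 CPM, none of them at 0 in either library. The part of these lists and markers in the ratios of the 9 genes was not tested.

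In adrenal endothelial-like cells, 1 of 8 assessed genes was past the fold, against 8.51% of all genes. That gene was Nfkbia, with 561 CPM (793 UMIs) under stress and 881 CPM (640 UMIs) in controls, a ratio of -0.65 (-0.80 to -0.50). Ddit4 was near the fold, at 231 CPM under stress and 337 CPM in controls (-0.55; -0.79 to -0.30). Fkbp5 stood on the other side, at 181 CPM under stress and 127 CPM in controls, a ratio of 0.51 (0.17 to 0.88). Zbtb16 was not assessed there, with 34 UMIs under stress and 6 in controls. Macrophage markers summed to 733 CPM under stress and 884 CPM in controls in these cells. Cortex markers summed to 1567 CPM under stress and 1126 CPM in controls. The part of these in the ratios of the 9 genes was not tested.

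Of the 9 genes in adrenal macrophage-like cells, 2 were past the fold, against 12.1% of all genes, the highest share in the adrenal. Cdkn1a had 666 CPM (2306 UMIs) under stress and 1069.8 CPM (2172 UMIs) in controls, a ratio of -0.68 (-0.77 to -0.60). Zbtb16 had 24.3 CPM (84 UMIs) under stress and 15.3 CPM (31 UMIs) in controls, a ratio of 0.65 (0.06 to 1.31). Both were within the fold with the ratio of the other adrenal cells subtracted, Cdkn1a at -0.35 and Zbtb16 at 0.45; Cdkn1a was also just within it at a mitochondrial limit of 10%, and Zbtb16 when scaled by the median gene ratio (0.56) or with clusters weighted equally (0.56). Nfkbia, at its highest level anywhere in these cells, was at -0.29, and Fkbp5 at 0.26. The largest macrophage-like cluster was led by Cxcl2, Il1b, Ccl3 and Tnf, inflammatory genes, and the class held 492 cells under stress and 305 in controls.

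In the pituitary, the ratios of Cdkn1a and Tsc22d3 had opposite signs. Cdkn1a was above 0 in all 5 classes where it was assessed, from 0.36 in somatotrope-like to 1.78 in melanotrope-like cells, and Tsc22d3 was below 0 in all 8, from -0.89 in endothelial-like to -0.17 in corticotrope-like cells. The Tsc22d3 intervals lay below 0 in 5 of the 8 and held 0 in corticotrope-like, gonadotrope-like and melanotrope-like cells. Ddit4 was above 0 in 5 of 7 classes and Sgk1 below 0 in 4 of 5.

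In melanotrope-like cells, which make alpha-melanocyte-stimulating hormone, 1 of 6 assessed genes was past the fold, against 16.4% of all genes, the highest background of the 18 classes. Cdkn1a had 43.1 CPM (37 UMIs) under stress and 12.3 CPM (15 UMIs) in controls, a ratio of 1.78 (0.90 to 2.78), the largest of the 134. The 37 and 15 UMIs came from 12 of 107 cells under stress and 12 of 141 in controls, with at most 11 and 3 UMIs in a cell. Somatotrope markers, Gh among them, summed to 251570 CPM under stress and 291867 CPM in controls in these cells, and macrophage markers to 19.8 CPM under stress and 122 CPM in controls; their part in the ratio was not tested. At a clustering resolution of 2 the melanotrope-like cluster held 70 cells under stress and 66 in controls, against the 107 and 141 here, too few to be compared.

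In lactotrope-like cells, the prolactin cells, 4 of 9 genes were past the fold, against 6.51% of all genes. Cdkn1a had 17.5 CPM (78 UMIs) under stress and 6.98 CPM (28 UMIs) in controls, a ratio of 1.31 (0.69 to 2.003). These UMIs came from 28 of 523 cells under stress and 15 of 499 in controls, with at most 14 and 5 UMIs in a cell. Zbtb16 was lower, with 4.48 CPM (20 UMIs) under stress and 10.7 CPM (43 UMIs) in controls, a ratio of -1.24 (-2.10 to -0.46). Sgk1 (4.70 CPM under stress and 7.97 CPM in controls) and Errfi1 (7.17 CPM under stress and 11.2 CPM in controls) were also lower, at -0.75 (-1.63 to 0.08) and -0.64 (-1.35 to 0.04), with intervals that held 0. All 4 genes were at low levels in this class, with at most 78 UMIs in a library. The background of 6.51% is over genes of all levels and was not matched to such low counts. With each cell thinned to 2000 UMIs the Cdkn1a ratio was 0.33, that of Sgk1 -0.50 and that of Errfi1 -0.19, all within the fold. Errfi1 was within it in 4 other alternatives and Sgk1 in 1.

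In corticotrope-like cells 1 of 8 genes was past the fold, against 8.96% of all genes. Ddit4 had 129 CPM (233 UMIs) under stress and 203 CPM (349 UMIs) in controls, a ratio of -0.66 (-0.90 to -0.41). It was within the fold with doublets kept (-0.57) and with cells thinned to 2000 UMIs (-0.56). Somatotrope markers summed to 59613 CPM under stress and 39866 CPM in controls in these cells. Lactotrope markers summed to 5190 CPM under stress and 5193 CPM in controls. The part of these in the Ddit4 ratio was not tested. Cdkn1a was higher, at 77.4 CPM under stress and 54.1 CPM in controls (0.51; 0.13 to 0.91), within the fold. Klf9 was lower, at 116 CPM under stress and 162 CPM in controls (-0.48; -0.74 to -0.22), while Errfi1 (-0.14) and Nfkbia (-0.09) had intervals that held 0. In the gonadotrope-like cells 0 of 6 genes were past the fold, against 6.92% of all genes, with Errfi1 the lowest at -0.40 (-1.32 to 0.46) and Nfkbia the highest at 0.34 (-0.02 to 0.70).

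Among the somatotrope-like cells, the growth hormone cells and the class with most cells, 0 of 9 genes were past the fold, against 6.37% of all genes. The median ratio of all genes was itself -0.18 here, and that of the 9 genes -0.26. Relative to this, Cdkn1a (39.1 CPM under stress and 30.4 CPM in controls; 0.36 (0.24 to 0.48)) and Ddit4 (49.0 CPM under stress and 41.6 CPM in controls; 0.24 (0.13 to 0.34)) stood above, and both lay above the 95th percentile of all genes. Both had ratios above 0 in every somatotrope-like cluster assessed, Cdkn1a in 4 of 4 (0.14 to 0.84) and Ddit4 in 5 of 5 (0.21 to 0.61). These clusters too come from 1 pair of libraries, are not replicates and have no background. Sgk1 (-0.46 (-0.68 to -0.25)) and Zbtb16 (-0.45 (-0.61 to -0.30)) were the lowest.

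In stem or folliculostellate-like cells, the non-hormonal cells of the gland, 2 of 7 genes were past the fold, against 5.8% of all genes. Errfi1 had 129 CPM (247 UMIs) under stress and 80.3 CPM (119 UMIs) in controls, a ratio of 0.68 (0.36 to 1.01). Sgk1 had 66.2 CPM (127 UMIs) under stress and 107 CPM (159 UMIs) in controls, a ratio of -0.70 (-1.04 to -0.35), which was -0.47 and within the fold with the ratio of the other pituitary cells subtracted. A single cell held at most 24 Errfi1 UMIs under stress and 13 in controls.

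In pituitary endothelial-like cells 2 of 7 genes were past the fold, against 9.34% of all genes. Tsc22d3 had 229.6 CPM (140 UMIs) under stress and 426 CPM (211 UMIs) in controls, a ratio of -0.89 (-1.21 to -0.58). Klf9 had 162 CPM (99 UMIs) under stress and 260.4 CPM (129 UMIs) in controls, a ratio of -0.68 (-1.07 to -0.29), within the fold with doublets kept (-0.52) or with the ratio of the other pituitary cells subtracted (-0.55). In pituitary macrophage-like cells 1 of 4 genes was past the fold, against 10.5% of all genes, and that gene was again Tsc22d3, with 97.1 CPM (58 UMIs) under stress and 180.5 CPM (100 UMIs) in controls, a ratio of -0.89 (-1.39 to -0.41). Markers of other cell types differed between the libraries of both classes. In the endothelial-like cells somatotrope markers summed to 64263 CPM under stress and 85789 CPM in controls, lactotrope markers to 15679 CPM under stress and 6939 CPM in controls, and corticotrope markers to 4472 CPM under stress and 10460 CPM in controls. Fibroblast markers there summed to 14.8 CPM under stress and 250.3 CPM in controls, with 2 of 5 at 0 under stress, and markers of dividing cells to 36.1 CPM under stress and 107 CPM in controls. In the macrophage-like cells somatotrope markers summed to 162915 CPM under stress and 116382 CPM in controls, stem or folliculostellate markers to 169 CPM under stress and 19.9 CPM in controls, and endothelial markers to 97.1 CPM under stress and 16.2 CPM in controls. Heat-shock genes had a median ratio of 1.13 in these endothelial-like cells, with 7 of 7 past the fold and higher, and immediate-early genes one of 0.87, with 6 of 9. In somatotrope-like cells the immediate-early median was 1.40, with 11 of 12 past the fold and higher, against 0.83% of all genes, and Jun highest at 2.32. The part of these in the ratios of the 9 genes was not tested.

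**Figure D4:**
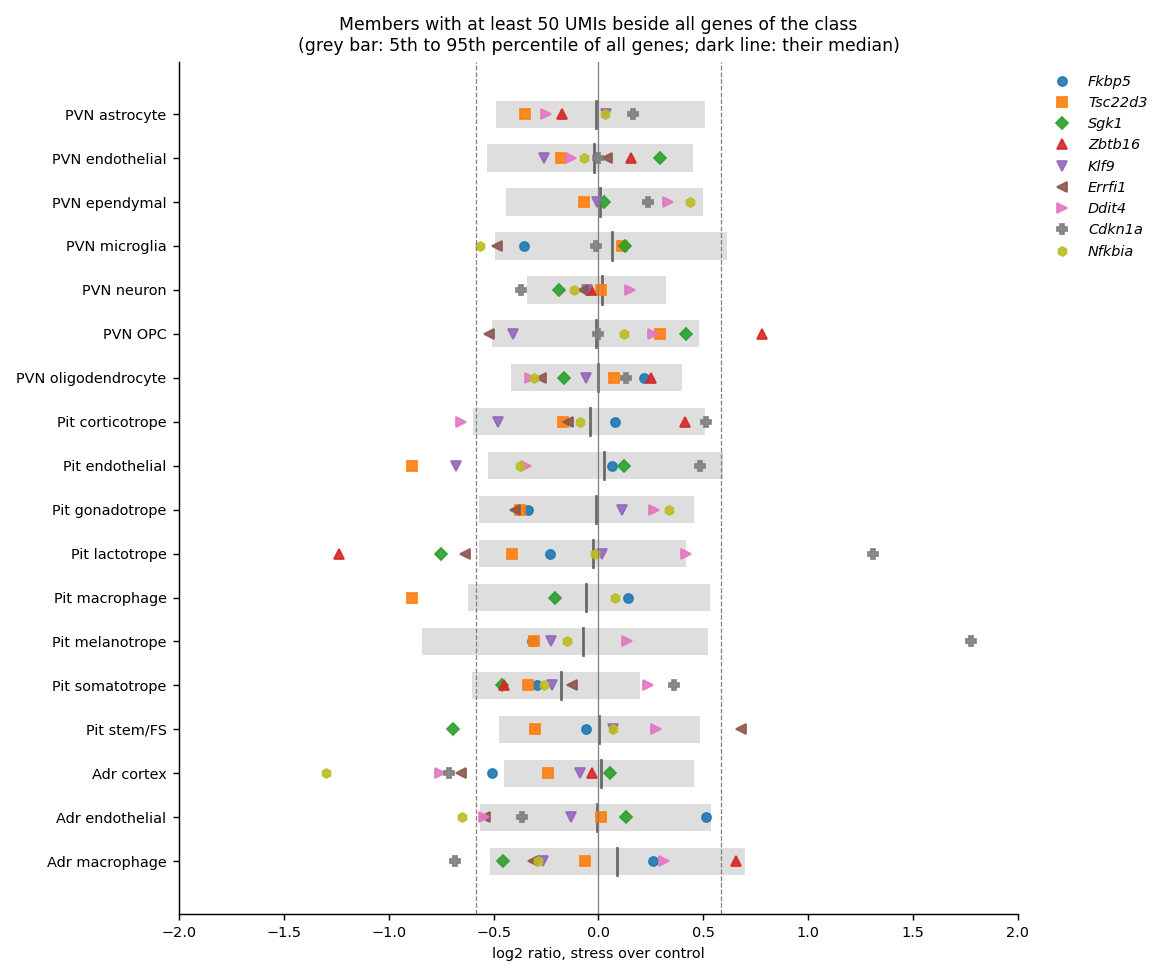
Log2 ratio of stress over control of the assessed genes of the 9 (coloured points) in each of the 18 cell classes (rows), over a grey bar from the 5th to the 95th percentile of all genes assessed in that class with their median as a dark line; dashed lines mark 1.5-fold. In adrenal cortex-like cells 5 of 9 points lie below the grey bar, and in lactotrope-like cells 3 lie below and 2 above it.

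The PVN classes showed the smallest differences. In neuron-like cells, 1573 under stress and 1585 in controls, 0 of 9 genes were past the fold, against 2.74% of all genes, the lowest background of all. Cdkn1a was the one gene with an interval below 0, at 21.6 CPM under stress and 27.9 CPM in controls, a ratio of -0.37 (-0.56 to -0.18), and Ddit4 the one with an interval above 0, at 45.1 CPM under stress and 40.7 CPM in controls, a ratio of 0.15 (0.00 to 0.29). Klf9 (-0.05 (-0.16 to 0.05)), Errfi1 (-0.07 (-0.28 to 0.13)), Zbtb16 (-0.04 (-0.37 to 0.29)) and Nfkbia (-0.12 (-0.31 to 0.07)) had intervals that held 0. Clusters of neurons differed among themselves for Cdkn1a, from -0.76 in cluster 4, led by Gnrh1, to 0.74 in cluster 10, led by Grp, where it stood at 86.8 CPM under stress and 52.0 CPM in controls. Ddit4 was above 0 in 5 of 6 neuron clusters, which are not replicates and have no background.

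In oligodendrocyte-like cells, the myelinating cells, 0 of 9 genes were past the fold, against 3.79% of all genes. Ddit4, at 166 CPM under stress and 208 CPM in controls (-0.33 (-0.49 to -0.16)), Nfkbia (-0.31 (-0.52 to -0.09)) and Sgk1 (-0.17 (-0.24 to -0.09)) had intervals below 0. Their precursors had 1 of 8 genes past the fold, against 6.02% of all genes: Zbtb16, with 45.2 CPM (38 UMIs) under stress and 26.0 CPM (20 UMIs) in controls, a ratio of 0.78 (-0.02 to 1.65), whose interval held 0. Sgk1 was also higher in the precursors, at 154 CPM under stress and 115 CPM in controls (0.42; 0.02 to 0.83), and Klf9 lower (-0.41 (-0.78 to -0.04)).

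Astrocyte-like cells had 0 of 6 genes past the fold, against 6.11% of all genes. Tsc22d3, at its highest level in any class here, was at 610.2 CPM under stress and 779 CPM in controls, a ratio of -0.35 (-0.51 to -0.20), and Ddit4 at -0.25 (-0.50 to -0.00). In both astrocyte-like clusters, which are not replicates, Tsc22d3 and Ddit4 were below 0. Errfi1 was not assessed there, with 37 UMIs under stress and 8 in controls. Endothelial-like cells of the PVN had 0 of 8 past the fold, against 5.92% of all genes. In these, Cdkn1a was at -0.00 (-0.17 to 0.17), Tsc22d3 was at -0.18 (-0.33 to -0.02) and Sgk1 at 0.29 (0.04 to 0.55).

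Ependymal-like cells, which line the third ventricle, had 0 of 6 past the fold, against 5.38% of all genes, with Nfkbia the highest at 0.44 (0.08 to 0.79). Microglia-like cells had 0 of 6 past the fold, against 8.89% of all genes. Nfkbia came close to it, with 2099 CPM (1405 UMIs) under stress and 3109 CPM (3082 UMIs) in controls, a ratio of -0.57 (-0.66 to -0.47), and Errfi1 was at -0.49 (-1.14 to 0.12). Of 10 NF-kB targets in the microglia-like cells, 8 were assessed and 1, Nfkbiz (-0.70), was past the fold and lower, with a median of -0.31. Leading genes of the microglia-like cluster included Ccl4 and Ccl3, chemokine genes, and heat-shock genes had a median ratio of 0.87 in them. Oligodendrocyte markers summed to 214 CPM under stress and 1157 CPM in controls in the microglia-like cells, with 0 of 7 at 0 in either library, and mural markers to 31.4 CPM under stress and 136 CPM in controls. The part of these in the Nfkbia ratio was not tested.

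Over the 18 classes the Nfkbia interval lay below 0 in 7: the 3 adrenal classes, microglia-like and oligodendrocyte-like cells, and the endothelial-like and somatotrope-like cells of the pituitary. It lay above 0 in ependymal-like cells and held 0 in the other 10. Whether its ratio differs between tissues could not be tested with 1 library each. Over all kept cells of a tissue, without regard to class, Sgk1 was higher in the adrenal (0.40) with ratios of -0.46 to 0.13 in the 3 adrenal classes, whose shares of the cells differed between the libraries.

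Beside the 9 genes, the 19 other glucocorticoid-responsive genes gave median ratios from -0.59 in cortex-like cells to 0.39 in melanotrope-like cells. In neuron-like cells 11 were assessed and 0 were past the fold, against 2.74% of all genes, with Mt1 the highest (0.26) and Fam107a the lowest (-0.31). Corticotrope-like cells had 1 of 9 past the fold and lower, Cebpb at -0.82, where 5.41% of all genes were past it and lower. Somatotrope-like cells had 3 of 15 past the fold and higher, where 0.83% of all genes were past it and higher. They were led by Dusp1 at 1.66, a phosphatase gene that is also an immediate-early gene. The hypoxia and integrated stress list, which shares inputs with Ddit4, had a median of -0.27 in corticotrope-like cells and of 0.01 in cortex-like cells, where Pgk1 was the highest at 0.77 and Vegfa the lowest at -0.50.

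**Figure D5:**
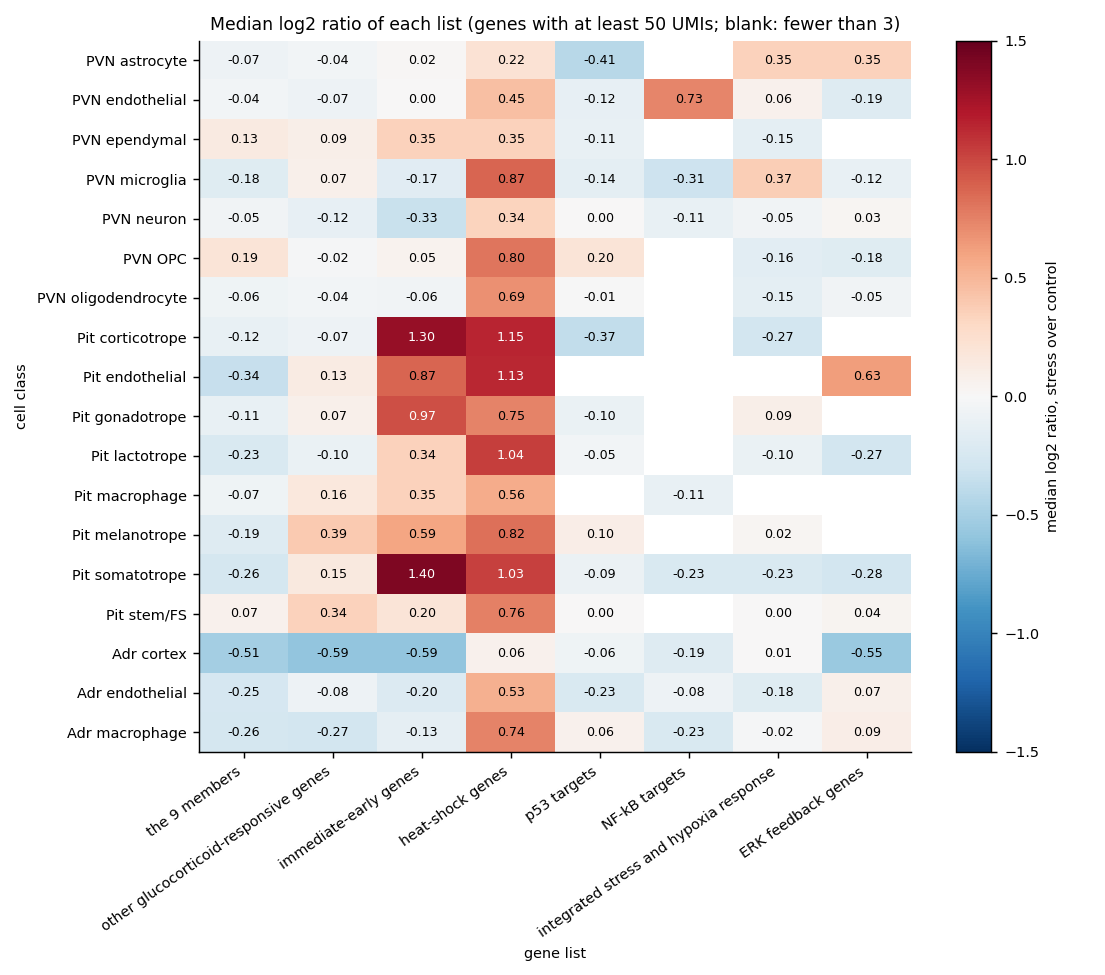
Median log2 ratio of stress over control of each gene list (columns) in each of the 18 cell classes (rows), over genes with at least 50 UMIs in the class and blank with fewer than 3 such genes. The heat-shock column is above 0 in every class, and in the cortex-like row the 9 genes are at -0.51, the other glucocorticoid-responsive genes at -0.59 and the immediate-early genes at -0.59.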

How the data were processed

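The deposited matrices held UMI counts per gene and barcode, not normalized by the authors; Cell Ranger 2.1.1 and mm10 were used per the submitters' processing notes, which name Scanpy without a role. The sources used here give neither the annotation nor the use of strand. A barcode was kept if it had 200 genes or more and no more than 25% mitochondrial UMIs. Those with over 5% haemoglobin UMIs were left out, as were the highest doublet scores (0.8% per 1000 cells, 2 simulated doublets per cell), which left 3424 and 3499 PVN, 4858 and 4941 pituitary and 2742 and 2161 adrenal cells (stress and control). The cells of each tissue were clustered in scanpy 1.11.5 (2000 variable genes without the 9 genes and the stress-related lists, 30 principal components, 15 neighbours, Leiden resolution 1). A cluster was named from at least 3 markers. The haemoglobin limit and part of the naming rules were set after clusters had been seen, and clusters of mixed markers stayed unnamed.

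UMIs were summed per class and library, with 0.5 UMI added for ratios, and ratios have exact conditional binomial intervals. The ratio script was tested on simulated counts. The 9 genes and the 8 gene lists were chosen with earlier results of these data known; Cebpd, listed, was not found in the gene table. Named are the 9 genes, the 3 genes with the most similar profile for each, and the highest and lowest genes of a list in a class. Alternatives were other scalings, UMI minimums, cell filters, a finer clustering, thinning to 2000 UMIs and other ways of averaging.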

Additional observations from a re-analysis of the deposited data

Results flagged for a closer look

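For 3 genes the ratio of stress over control was past the fold in opposite directions in different cell classes, with intervals on 1 side of 0. For these genes, ratios past the fold whose interval held 0 are left out below. They are Errfi1 in lactotrope-like cells (-0.64) and Zbtb16 in oligodendrocyte precursor-like cells (0.78). The share of all genes with such opposite ratios was not counted, so the 3 genes have no background. The difference between the classes was not tested, since each class has 1 library per condition. Each direction is that of 1 pair of pools, and for each gene at least 1 of the ratios came within the fold under another processing. The alternatives counted below include UMI minimums of 20 and 100, which cannot move a ratio.

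Cdkn1a, the cell cycle inhibitor p21, was higher under stress in melanotrope-like cells (log2 ratio 1.78) and lactotrope-like cells (1.31), and lower in adrenal macrophage-like cells (-0.68) and adrenal cortex-like cells (-0.71). The pituitary values rest on few molecules, 37 and 15 UMIs in melanotrope-like and 78 and 28 in lactotrope-like cells (stress and control). The adrenal values rest on 2306 and 2172 UMIs in macrophage-like and 1000 and 1599 in cortex-like cells. Within the fold came the macrophage-like ratio in 2 of 11 alternatives (as far as -0.35), the cortex-like ratio in 1 (-0.30) and the lactotrope-like ratio in 1 (0.33).

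Errfi1, the EGF receptor inhibitor, was higher in stem or folliculostellate-like cells (0.68) and lower in adrenal cortex-like cells (-0.66), where it was within the fold in 2 of 11 alternatives (as far as -0.32). Zbtb16, the zinc finger repressor, was higher in adrenal macrophage-like cells (0.65) and lower in lactotrope-like cells (-1.24), from 20 UMIs under stress and 43 in controls. Its macrophage-like ratio was within the fold in 3 of 11 alternatives (as far as 0.45).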

How the results depend on the processing

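No paired analysis was possible because each tissue and condition has 1 library. Counts of pairs past the fold, 1 higher and 0 lower for the PVN, 3 and 8 for the pituitary and 1 and 6 for the adrenal, stayed within 1.5 times of these with a mitochondrial limit of 10% and at resolution 2. Elsewhere they moved as follows, with the counts not given within 1.5 times. Scaling by the median gene ratio gave 1 lower in the PVN and 0 higher in the adrenal. A minimum of 20 UMIs gave 2 higher in the PVN and 2 higher in the adrenal, and one of 100 UMIs gave 0 higher in the PVN and 5 lower in the pituitary. Asking also for an interval on 1 side of 0 gave 0 higher in the PVN, and keeping doublets gave 2 lower in the PVN. Thinning cells to 2000 UMIs gave 2 higher and 3 lower in the PVN and 3 higher in the adrenal. Subtracting the ratio of the tissue's other cells gave 6 higher in the PVN and 5 lower in the pituitary. Averaging per-cell CPM gave 3 lower in the PVN, 5 higher in the pituitary and 2 higher in the adrenal. Leaving out the 1% of cells with most UMIs gave 1 lower in the PVN. Weighting the clusters of a class equally, chosen after seeing the data, gave 1 lower in the PVN and 0 higher in the adrenal. The cause of these shifts was not tested.

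Of the 19 pairs past the fold, none changed direction, and 9 stayed past it in every alternative that gave them a value (7 to 11 each). Those include Nfkbia in adrenal cortex-like (-1.38 to -1.07) and endothelial-like cells (-0.70 to -0.59), Tsc22d3 in pituitary endothelial-like (-1.002 to -0.61) and macrophage-like cells (-1.08 to -0.60), and Ddit4 in cortex-like cells (-0.88 to -0.59). The other 10 came within the fold in at least 1 alternative. The UMI minimums of 20 and 100 are counted among the alternatives, but they leave a ratio as it is and could not move it. Errfi1 in lactotrope-like cells was past it in 5 of 10 (-0.71 to -0.19) and Zbtb16 in adrenal macrophage-like cells in 8 of 11 (0.45 to 0.90). Past it in 9 of 11 were Cdkn1a in adrenal macrophage-like cells (-0.77 to -0.35), Errfi1 in cortex-like cells (-0.78 to -0.32), Ddit4 in corticotrope-like cells (-0.88 to -0.56) and Klf9 in pituitary endothelial-like cells (-0.83 to -0.52). Sgk1 in lactotrope-like cells was past it in 8 of 10 (-0.89 to -0.50). Past it in 10 of 11 were Cdkn1a in cortex-like (-0.91 to -0.30) and lactotrope-like cells (0.33 to 1.40) and Sgk1 in stem or folliculostellate-like cells (-0.74 to -0.47). Melanotrope-like cells were not compared with doublets kept or at resolution 2, where 17 classes were. Depth limits the rare classes most: 134 of the 162 pairs reached 50 UMIs.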

Other observations

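A cluster of PVN neuron-like cells, cluster 16, led by Oxt, Sst, Avp and Crh, held 42 cells under stress and 100 in controls, too few under stress for the comparison within clusters. Fkbp5 stood at 19.6 CPM under stress and 17.2 CPM in controls in these cells, from 15 and 32 UMIs. Tsc22d3 was at 40.5 CPM under stress and 56.5 CPM in controls, Klf9 at 71.9 and 72.7 CPM, and Zbtb16 at 24.8 and 16.2 CPM. Sgk1 had 2 UMIs under stress and 13 in controls.

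An adrenal cortex-like cluster led by the cell division genes Stmn1, Cenpf and Ube2c, cluster 14, held 59 cells under stress and 38 in controls. Nfkbia was at 86.6 CPM under stress and 308 CPM in controls in this cluster, from 103 and 202 UMIs, and Cdkn1a at 175 and 215 CPM.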
